A study of Homo sapiens with 40 samples.

Results

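Wild-type (WT) HEK293A cells that received the TDP1 inhibitor OL9-119 together with topotecan (Tpc) were compared with WT cells that received OL9-119 without Tpc. The comparison holds 8 of the 40 libraries of the series, 4 with Tpc + OL9-119 and 4 with OL9-119, and it shows what the TOP1 poison added to the transcriptome while TDP1 was inhibited. Of the 58395 genes listed, 28922 reached a sum of 10 counts over the series and were tested.

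HEK293A is an adherent human embryonic kidney line made with adenovirus DNA, and both groups were WT for PARP1. The OL9-119 group was given 5 μM OL9-119, a usnic acid derivative, dissolved in 0.1% DMSO, and the Tpc + OL9-119 group was given 100 nM Tpc on top of it, in both cases for 5 to 5.5 h. Values are set beside those of 4 WT libraries with 0.1% DMSO and 4 with 100 nM Tpc + 0.1% DMSO, and beside PARP1-KO libraries (4 with OL9-119 and 4 with OL9-119 + Tpc), in which Tpc was 50 nM. The PARP1-KO cells are 1 clone that lacks exons 3 to 5 of PARP1, and the labels name their genotype a PARP1 knockdown. The labels call the 4 libraries of a group biological replicates whereas the methods of the study call them technical. The p-values rest on the spread between libraries of a group, pooled over the 10 conditions of all 40 libraries. That spread may be technical.

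Total counts in the 8 libraries ranged from 3455043 to 14118481. At an equal depth of 3455043 counts, 5 libraries held 19715 to 20601 genes and the other 3 held 16108 to 16597. Those 3 are OL9-119 replicate 2 and Tpc + OL9-119 replicates 1 and 2, and counts that rest on them are given with and without them. The mitochondrial share of counts was 5.08% ± 0.576 with OL9-119 and 5.96% ± 0.649 with Tpc + OL9-119 (SD, n = 4), and the exact two-sided permutation test over the 70 divisions gave p = 0.0857, where 0.0286 is the smallest it can give. The keratin KRT8 was at 551 to 860.1 CPM (counts scaled to library size) in the 8 libraries. The 12 identity markers of the line summed to 1813 to 2274 CPM with OL9-119 and 1738 to 1959 CPM with Tpc + OL9-119, and none passed the test for a difference. The kidney lineage factor PAX2 was low and lay apart between the groups, at 3.23 to 4.41 CPM with OL9-119 and 0.108 to 1.99 CPM with Tpc + OL9-119, a log2 fold change of -1.78 (edgeR adjusted p = 0.282), and its part in the results was not tested. The leucocyte marker PTPRC had no count in any of the 8, which allows up to 0.868 CPM in the smallest library from counting error alone.

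TOP1 relaxes DNA by cutting a strand and staying joined to it until the strand is closed again, and it also relieves the torsion that builds up ahead of RNA polymerase II. Tpc, a camptothecin derivative, holds TOP1 in the joined state, and TDP1 removes the TOP1 remnant from the DNA end. DNA damage is among the known triggers of NF-kB, a family of transcription factors that the inhibitor NFKBIA keeps in the cytoplasm and that drive chemokine genes, and it can also stop cells in G2, when the genes of mitosis would otherwise be transcribed.

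Tpc added to OL9-119 changed 118 genes, of which 72 were higher and 46 lower, at an adjusted p below 0.01 in edgeR's quasi-likelihood test with Benjamini-Hochberg adjustment over all genes tested. These differentially expressed genes (DEGs) are 0.408% of the genes tested, 0.249% for the higher and 0.159% for the lower. Without the 3 libraries of fewest genes 38 DEGs were called, 26 higher and 12 lower, and 37 of them were among the 118. Between 70 and 74 were called without any 1 of Tpc + OL9-119 replicates 1 and 2 and OL9-119 replicates 2, 3 and 4. When length and GC offsets were added to the fit, 100 were higher and 33 lower. The fit held all 40 libraries of the series. With only the 8 libraries compared in it 65 DEGs were called, and with only the WT libraries 49. The higher genes reached larger changes: 34 rose by at least 1 on the log2 scale and 8 by at least 2, while 15 fell by at least 1. Of the 72 higher DEGs, 17 are in the lists of chemokines or NF-kB targets and 10 in the list of AP-1 and immediate early genes. Of the 46 lower DEGs, 14 are in the list of G2/M and mitosis genes and 19 span at least 200 kb, with no gene in both. In all 118 DEGs the 4 CPM values of one group lay outside the range of the other. This was so for 5.49% of all genes tested and for 10.8% of those averaging 50 or more counts. The DEGs were called on the same 8 libraries, so their lack of overlap is tied to the calling and is not separate evidence. The same holds wherever the groups of a named DEG are said not to overlap. At an unadjusted p below 0.05 there were 3524 genes, DEGs included.

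The chemokine promoters are printed because their genes showed the largest changes and because the stretch before their start holds matches to the binding motif of NF-kB. The 250 bases before the RefSeq transcription start are given on the plus strand from RefSeq (GRCh38.p14), at chr4:73740319-73740568 for CXCL8, chr4:73869143-73869392 for CXCL1 and chr2:227813592-227813841 for CCL20. Gene models of GENCODE 44 begin earlier for CXCL8 and CCL20, at 73740519 and 227805739, so that the last 50 bases of the CXCL8 window and all of the CCL20 window lie within those models. Capitals mark matches to the kappa B motif and, in CXCL8, to the AP-1 motif TGANTCA, on either strand.
CXCL8: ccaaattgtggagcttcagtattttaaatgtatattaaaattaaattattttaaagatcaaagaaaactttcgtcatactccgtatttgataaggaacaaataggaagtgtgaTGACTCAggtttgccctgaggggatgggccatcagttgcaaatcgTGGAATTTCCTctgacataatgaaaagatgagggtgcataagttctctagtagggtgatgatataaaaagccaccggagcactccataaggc
CXCL1: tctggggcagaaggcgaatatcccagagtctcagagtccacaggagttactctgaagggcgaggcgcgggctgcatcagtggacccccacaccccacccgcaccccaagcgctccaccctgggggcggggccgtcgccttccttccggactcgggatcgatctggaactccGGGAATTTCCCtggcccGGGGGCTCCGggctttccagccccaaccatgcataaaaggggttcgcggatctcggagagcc
CCL20: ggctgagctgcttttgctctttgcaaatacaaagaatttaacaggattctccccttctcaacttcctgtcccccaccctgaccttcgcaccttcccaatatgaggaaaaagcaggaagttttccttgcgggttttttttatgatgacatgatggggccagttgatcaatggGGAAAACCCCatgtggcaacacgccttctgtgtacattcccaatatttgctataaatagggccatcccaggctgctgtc

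In CXCL8 the kappa B stretch began at -92 and the AP-1 match at -137 from the start. In CXCL1 an overlapping pair of kappa B matches began at -79 and a separate one at -62, and in CCL20 the match began at -79. RefSeq promoters were matched for 54 of the 72 higher and 37 of the 46 lower DEGs. Over windows from 250 bases before to 50 after the start, a kappa B match was present in 18.5% of the 18994 promoters used, in 19 of the 54 of the higher DEGs (35.2%) and in 10 of the 14 higher chemokine and NF-kB DEGs with a promoter in the table (71.4%). Among the lower DEGs it was present in 4 of 37 (10.8%). Of the 9512 promoters of genes with a mean of at least 50 counts, 20.8% held a match. Over the whole chemokine and NF-kB lists, called or not, 29 of 51 promoters held one (56.9%). The share in the DEGs of these lists is to be read beside that value. A match to these letters is a description and not evidence of binding.

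Chemokines, the secreted ligands that attract leucocytes, gave 5 of the 8 DEGs that rose by at least 2 on the log2 scale. CXCL8, which attracts neutrophils, was at 18.2, 20.8, 16.3 and 16.5 CPM in OL9-119 replicates 1 to 4 and at 453, 359.9, 291 and 326 CPM in Tpc + OL9-119 replicates 1 to 4. Every library with Tpc was far above every library without it, and the groups did not overlap. The means were 18.0 ± 2.09 and 357 ± 69.7 CPM (SD, n = 4), a 19.9-fold rise with a log2 fold change of 4.32 (SE 0.194, adjusted p = 1.28e-25). CXCL1, another neutrophil chemokine, was at 0.808, 0.942, 0.636 and 0.615 CPM with OL9-119 and at 30.8, 33.03, 16.1 and 19.2 CPM with Tpc + OL9-119, a log2 fold change of 5.02 (SE 0.566, adjusted p = 5.31e-09). All 4 libraries with OL9-119 were below 1 CPM, and the 4 with Tpc split into a higher pair, which are the replicates of fewest genes, and a lower pair.

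CCL20, a ligand of the receptor CCR6, was at 3.37, 4.08, 4.45 and 2.97 CPM with OL9-119 and at 91.5, 63.8, 63.9 and 72.5 CPM with Tpc + OL9-119, a log2 fold change of 4.30 (SE 0.286, adjusted p = 1.11e-17). Each of the 4 libraries with Tpc was far above each without it. CXCL10, which attracts T cells, was at 1.21, 0, 0.424 and 0.615 CPM and rose to 22.8, 19.8, 15.1 and 11.8 CPM, a log2 fold change of 4.87 (SE 0.843, adjusted p = 0.000222). Its OL9-119 libraries lay at or near the floor, since no count in replicate 2 allows up to 0.324 CPM. CXCL2 rose by 3.86 (SE 0.679, adjusted p = 0.000297). These 5 were the DEGs among the 30 chemokines and cytokines tested (16.7%), none fell, 24 of 30 had a log2 fold change above 0, and the list's median was 0.71. Of the 5, 3 passed without the 3 libraries of fewest genes, CXCL10 and CXCL2 being the ones lost, at adjusted p = 0.0739 and 0.0379.

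**Figure D1:**
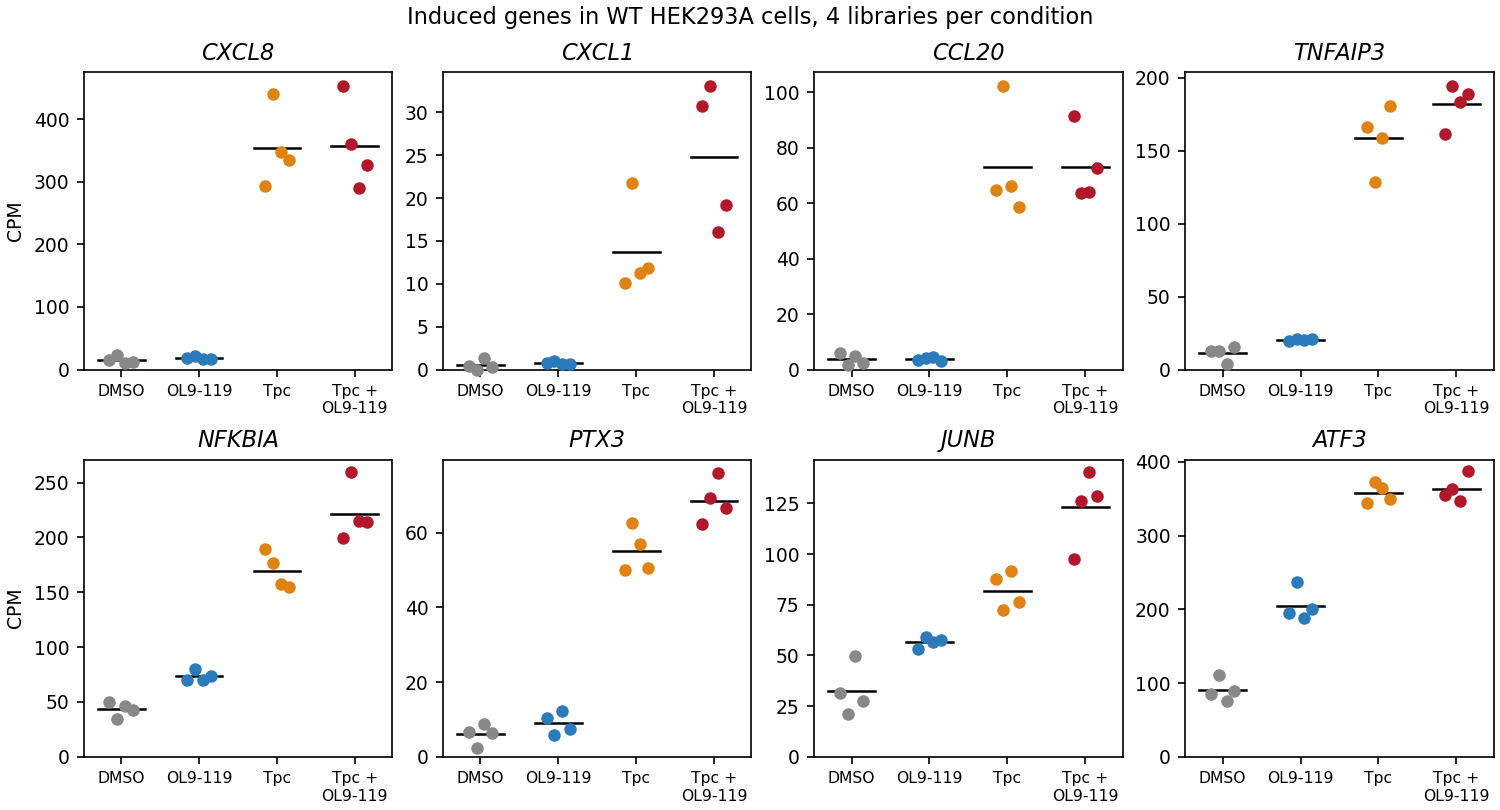
CPM of 8 induced genes in the 4 libraries of each WT condition (points, linear axes from 0; black lines are means). For CXCL8 the 4 libraries with OL9-119 lay between 16.3 and 20.8 CPM and those with Tpc + OL9-119 between 291 and 453 CPM, and for ATF3 the OL9-119 libraries (188 to 237 CPM) lay between those with DMSO and those with Tpc.

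The inhibitors and feedback regulators of NF-kB rose as well. TNFAIP3, the deubiquitinase A20 that limits NF-kB signalling, was at 19.7, 21.0, 20.3 and 21.0 CPM with OL9-119 and 161, 194, 183 and 189 CPM with Tpc + OL9-119, an 8.88-fold rise and a log2 fold change of 3.15 (SE 0.191, adjusted p = 2.4e-19). NFKBIA, the inhibitor itself, was at 69.7, 80.0, 70.2 and 73.6 CPM and 199, 259.8, 215 and 214 CPM, a log2 fold change of 1.60 (SE 0.129, adjusted p = 3.8e-14). In both genes the replicates of a group lay close together and the groups were well apart. BIRC3, a ubiquitin ligase of the TNF receptor complex, rose by 1.47 and IER3, an immediate early survival gene, by 1.44. The activation antigen CD69 rose by 4.05 from 1.16 ± 0.550 to 19.1 ± 7.53 CPM, and TNFRSF9, a costimulatory TNF receptor, by 1.82. The subunit genes RELB, NFKB2 and NFKB1 rose by 1.36, 1.23 and 0.80, and are named here although the naming rule did not pick them. In all, 12 of the 37 tested members of the list of NF-kB subunits, inhibitors and other targets rose (32.4%), none fell, 35 had a log2 fold change above 0, and the median was 0.80. Of the members, 10 passed without the 3 libraries of fewest genes. BIRC3, IER3 and TNFAIP3 each overlap a gene on the opposite strand, and the strand setting of the counting is not given in the sources used here, so reads of the overlapped stretch may belong to either gene.

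Other strongly raised genes were PTX3, the secreted pentraxin of innate immunity, at 10.4, 5.96, 12.2 and 7.38 CPM with OL9-119 and 62.3, 69.4, 76.0 and 66.7 CPM with Tpc + OL9-119, a log2 fold change of 2.93 (SE 0.224, adjusted p = 5.08e-15). TCIM, a small immune response regulator, rose by 1.77 and EFNA1, an ephrin ligand, by 1.65. MAFF, a small Maf transcription factor, rose by 1.48 and NEDD9, a focal adhesion scaffold, by 1.59. The call of NEDD9 held in 1 of the 8 fits that left out a library, while those of PTX3, TCIM, EFNA1 and MAFF held in all 8. EFNA1 was not called without the 3 libraries of fewest genes. PTX3, MAFF and NEDD9 overlap a gene on the opposite strand.

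AP-1 subunits and immediate early genes, which respond within minutes to hours of a stimulus, formed the next group. JUNB, an AP-1 subunit, was at 53.3, 59.1, 56.8 and 57.8 CPM with OL9-119 and 97.6, 126.1, 141 and 129 CPM with Tpc + OL9-119, a log2 fold change of 1.12 (SE 0.170, adjusted p = 1.42e-05). PPP1R15A, which directs a phosphatase to eIF2 alpha, rose by 1.16 and the zinc finger factor KLF6 by 0.80. ATF3, a stress-induced factor that pairs with JUN proteins, was at 195, 237, 188 and 200.5 CPM and 355, 364, 347 and 388 CPM, a log2 fold change of 0.83 (SE 0.106, adjusted p = 2.81e-07). Both groups of ATF3 libraries were tight, and those with OL9-119 alone stood at 205 ± 21.7 CPM against 90.6 ± 15.1 CPM in DMSO. Of 43 members tested, 10 rose (23.3%), none fell, 35 had a log2 fold change above 0, and the median was 0.41. Leaving out the 3 libraries of fewest genes, 6 passed. A TGANTCA match was present in 6.64% of all promoters used and in 4 of the 54 of the higher DEGs (7.41%). For genes with a mean of at least 50 counts the share was 3.97%. JUNB overlaps a gene on the opposite strand.

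Of the p53 target genes 3 rose and none fell. GADD45A, which slows the cell cycle after damage, was at 81.2, 118, 85.4 and 90.8 CPM with OL9-119 and 188, 152, 165 and 179 CPM with Tpc + OL9-119, a log2 fold change of 0.87 (SE 0.136, adjusted p = 3.18e-05). PLK2 rose by 0.68. PMAIP1, the BH3-only protein NOXA that binds MCL1, was at 495, 513, 532 and 502 CPM and 731, 789, 679 and 698 CPM, a log2 fold change of 0.50 (SE 0.0897, adjusted p = 0.000357). These 3 were the DEGs among 36 members tested (8.33%), where 0.249% of all genes tested were higher DEGs. In 28 of the 36 the log2 fold change was above 0, and the median was 0.15. Over all 11879 genes with a mean of at least 50 counts 5980 were above 0. In the BCL2 family PMAIP1 rose together with its partner MCL1, an anti-apoptotic protein, which was at 176, 154, 195 and 201 CPM and 289, 265, 239 and 256 CPM, a log2 fold change of 0.53 (SE 0.101, adjusted p = 0.00112). These were 2 of 17 members tested (11.8%, beside the same 0.249%). Of the 2, 1 passed without Tpc + OL9-119 replicate 1 or without OL9-119 replicate 2. Without the 3 libraries of fewest genes 1 member of the p53 list and none of the BCL2 family passed. MCL1 overlaps genes on both strands.

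Genes that act on the lesion itself showed no DEG. TDP1, the target of OL9-119, was at 29.8, 47.6, 25.4 and 24.1 CPM with OL9-119 and 16.3, 10.1, 21.7 and 16.7 CPM with Tpc + OL9-119, a log2 fold change of -0.97 (SE 0.259, adjusted p = 0.0496). The groups did not overlap, but the adjusted p is above the threshold of 0.01. TOP1, the target of Tpc, stood at 321 ± 18.7 and 323 ± 33.3 CPM (SD, n = 4), a log2 fold change of 0.01 with SE 0.103. PARP1 stood at 783 ± 21.0 and 795 ± 32.3 CPM in WT and at 37.3 ± 3.71 and 39.2 ± 4.52 CPM in PARP1-KO. Over the 35 tested genes of TOP1 lesion repair the median log2 fold change was 0.06. Among 49 genes of homologous recombination, the Fanconi pathway and checkpoints, EXO1, a nuclease that resects DNA ends, rose by 0.64 (SE 0.120, adjusted p = 0.000804) and the phosphatase CDC25A by 0.59 (SE 0.125, adjusted p = 0.0047). The median of that list was 0.11, and none of its members passed without the 3 libraries of fewest genes, nor without Tpc + OL9-119 replicate 1 or OL9-119 replicate 2 alone, while 1 passed without Tpc + OL9-119 replicates 2 or 4 or OL9-119 replicates 3 or 4. EXO1 and TOP1 overlap a gene on the opposite strand.

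Genes of G2 and mitosis formed a lower group of 14 DEGs. PLK1, the kinase that drives entry into and passage through mitosis, was at 125.1, 104.1, 107 and 116.3 CPM with OL9-119 and 45.7, 27.2, 38.5 and 52.99 CPM with Tpc + OL9-119. Each library with Tpc was below each without it, with means of 113 ± 9.56 and 41.1 ± 11 CPM and a log2 fold change of -1.47 (SE 0.172, adjusted p = 1.54e-08). KIF20A, a kinesin of cytokinesis, was at 96.6, 107, 90.9 and 85.1 CPM and 29.2, 30.3, 42.6 and 41.7 CPM, a log2 fold change of -1.41 (SE 0.148, adjusted p = 5.3e-10). CDC20, the activator of the anaphase-promoting complex, was at 146, 144, 112 and 116.4 CPM and 76.0, 72.0, 64.9 and 60.7 CPM, a log2 fold change of -0.92 (SE 0.139, adjusted p = 1.28e-05). In none of these genes did the groups overlap. The kinase AURKA fell by 0.91 on the log2 scale, and its Tpc + OL9-119 replicate 1 stood at 66.5 CPM above the other 3, which were at 38.7 to 42.8 CPM. PSRC1, a spindle microtubule protein, fell by 1.59.

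Of 50 tested G2/M genes 14 fell (28%), none rose, and 2 had a log2 fold change above 0, with a median of -0.47. Besides the genes above, the cyclins CCNB1 and CCNB2 and the topoisomerase TOP2A were among the 14, at -0.66, -0.72 and -0.65, named after their values were seen. With the 3 libraries of fewest genes left out 9 passed, as many as without OL9-119 replicate 2 alone. The G1/S and DNA replication list of 56 genes had no DEG and a median of 0.22, with 48 members above 0. Its member of lowest p was CDC6, which loads the replicative helicase, at 0.44 (SE 0.106, adjusted p = 0.0182). In bulk RNA, fewer cells in G2 and mitosis and less of these mRNAs per cell cannot be told apart. PLK1 and KIF20A overlap a gene on the opposite strand.

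The promoters of PLK1 and CDC20 are shown for comparison with those of the chemokines, since mitosis genes carry the cell cycle homology region (CHR) at which their repressor and activator complexes bind. The 250 bases before the RefSeq start are at chr16:23678639-23678888 and chr1:43358731-43358980 (GRCh38.p14, plus strand), the first of them within the GENCODE 44 model of PLK1, which begins at 23677656, with capitals at the CHR letters TTTGAA on either strand.
PLK1: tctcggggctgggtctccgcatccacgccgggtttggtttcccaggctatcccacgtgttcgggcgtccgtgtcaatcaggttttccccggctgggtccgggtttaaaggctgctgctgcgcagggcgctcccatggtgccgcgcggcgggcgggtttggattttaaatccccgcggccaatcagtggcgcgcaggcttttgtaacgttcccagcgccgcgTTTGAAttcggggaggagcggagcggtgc
CDC20: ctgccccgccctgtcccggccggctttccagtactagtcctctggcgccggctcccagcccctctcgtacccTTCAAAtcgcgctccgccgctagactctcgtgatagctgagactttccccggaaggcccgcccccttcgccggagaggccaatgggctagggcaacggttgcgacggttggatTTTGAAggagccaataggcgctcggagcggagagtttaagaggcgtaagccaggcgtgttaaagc

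The match in PLK1 began at -29 and those in CDC20 at -178 and -65 from the start. TTTGAA on either strand was present in 13.2% of all promoters used and in 9.1% of those of genes with a mean of at least 50 counts. It was present in 26 of 42 promoters of the G2/M list (61.9%), in 14 of 37 of the lower DEGs (37.8%) and in 11.1% of the higher DEGs.

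**Figure D2:**
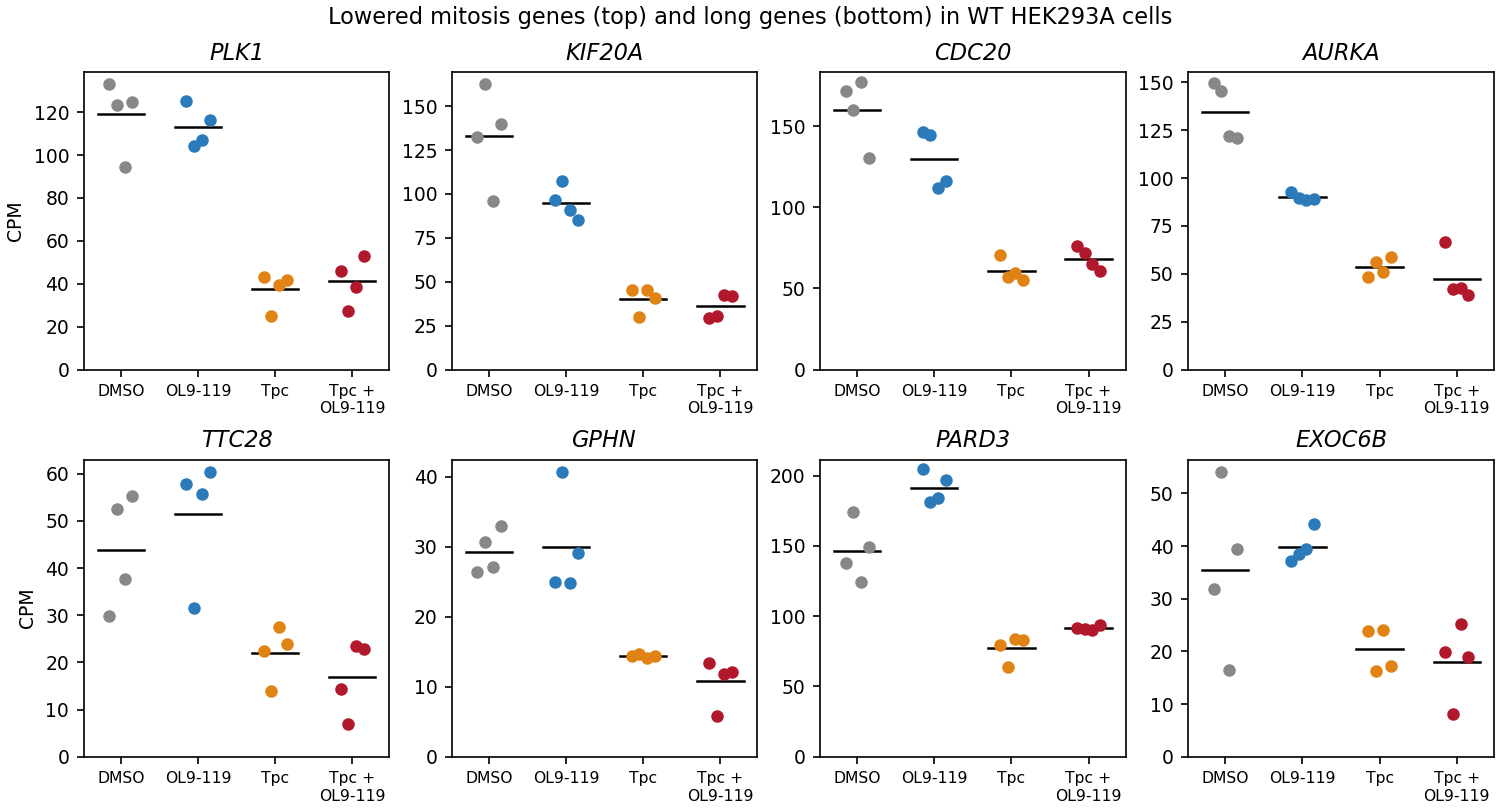
CPM of 4 mitosis genes (top) and 4 long genes (bottom) in the 4 libraries of each WT condition (points, linear axes from 0; black lines are means). For PLK1 the 4 libraries with Tpc + OL9-119 lay below the 4 with OL9-119, and for PARD3 those with OL9-119 lay between 181 and 204 CPM and those with Tpc + OL9-119 between 90.3 and 93.9 CPM.

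Genes with a long transcribed stretch formed the larger lower group, with 19 DEGs of at least 200 kb. PARD3, a cell polarity scaffold of 706 kb at chr10:34109560-34815325 (hg38, GENCODE 44), was at 204, 181, 184 and 197 CPM with OL9-119 and 91.9, 90.7, 90.3 and 93.9 CPM with Tpc + OL9-119, a log2 fold change of -1.06 (SE 0.142, adjusted p = 5.84e-07). Its libraries were tight in both groups and the groups were well apart. TTC28, a midzone protein gene of 702 kb at chr22:27978014-28679840, was at 57.8, 31.6, 55.8 and 60.3 CPM and 14.4, 7.02, 23.5 and 22.8 CPM, a log2 fold change of -1.63 (SE 0.252, adjusted p = 1.94e-05). Its replicates varied more, with OL9-119 replicate 2 and Tpc + OL9-119 replicate 2 lowest in their groups. GPHN, the gephyrin scaffold of inhibitory synapses, of 674 kb at chr14:66507407-67181803, was at 24.97, 40.7, 24.8 and 29.1 CPM and 13.4, 5.83, 11.8 and 12.1 CPM, a log2 fold change of -1.48 (SE 0.215, adjusted p = 6.29e-06). PRKG1, a cGMP-dependent kinase of 1310 kb at chr10:50990888-52298423, fell by 1.42 and BTBD9, of 472 kb, by 1.43.

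Of the 274 tested protein-coding genes of at least 500 kb, 9 fell (3.28%) and 1 rose, CREB5, by 0.88, whose call was lost without Tpc + OL9-119 replicate 1 or OL9-119 replicate 2. Their median log2 fold change was -0.55, with 51 above 0, and the groups did not overlap in 55 that were lower and 1 that was higher, beside 2.69% and 2.79% of all genes tested. Leaving out a library took the 9 to between 3 and 10, with 3 without OL9-119 replicate 3, 4 without its replicate 4, and 5 without its replicate 1, Tpc + OL9-119 replicate 3 or replicate 4. Without the 3 libraries of fewest genes 1 was called and the median was -0.60. The calls of EXOC6B, LPP and ABTB3 held in 1 of the 8 fits that left out a library, those of PRKG1, PTPRG and SBF2 in 3, and those of TTC28, GPHN and PARD3 in all 8. TTC28, GPHN, PRKG1, PTPRG, SBF2, LPP and ABTB3 overlap a gene on the opposite strand.

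Across all genes with a mean of at least 50 counts the median log2 fold change was lower in the longer ones. It was -0.02 in 2173 genes under 10 kb, 0.06 in 5065 of 10 to 50 kb and -0.01 in 3702 of 50 to 200 kb. It was -0.25 in 784 genes of 200 to 500 kb, of which 82.1% were below 0, and -0.56 in 138 of 500 kb and over, of which 89.9% were below 0. Lower DEGs were 10 of the 784 and 9 of the 138, beside 0.379% of all genes at this level, where higher DEGs were 0.598%. In the longest genes the median of each Tpc + OL9-119 library, relative to the mean of the OL9-119 libraries, was -0.50, -0.65, -0.57 and -0.54 in replicates 1 to 4, while the OL9-119 libraries ranged from -0.20 to 0.10. The groups did not overlap, and the lowest OL9-119 library was replicate 2, one of the 3 of fewest genes. The lower DEGs had a median length of 63.7 kb and the higher ones of 12.9 kb, beside 34.6 kb over these genes. Genes under 10 kb were 41.7% of the higher DEGs and 18.3% of these genes.

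**Figure D3:**
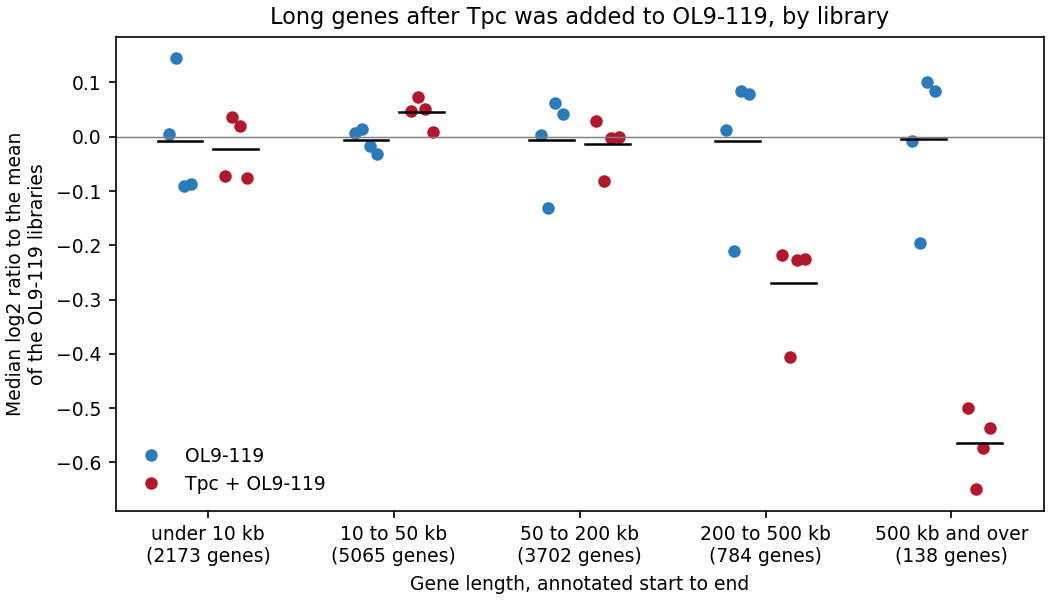
Median log2 ratio to the mean of the 4 OL9-119 libraries, in each of the 8 libraries (points; black lines are group means), over genes in 5 classes of annotated length. The groups lie together up to 200 kb and apart at 500 kb and over, where the means were -0.01 ± 0.136 with OL9-119 and -0.56 ± 0.0639 with Tpc + OL9-119 (SD, n = 4).

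Other lower DEGs were neither long nor in the G2/M list, 13 in all. DHRS2, a short-chain dehydrogenase, was at 298, 267, 269 and 248 CPM with OL9-119 and 116.5, 138, 147 and 143 CPM with Tpc + OL9-119, a log2 fold change of -0.99 (SE 0.136, adjusted p = 1.24e-06). SAPCD2, which helps orient the spindle, fell by 1.13 and overlaps genes on the opposite strand. DDIT4, an inhibitor of mTORC1 signalling and an ATF4 target, was at 231, 223, 254 and 267 CPM and 118, 153, 191 and 157 CPM, a log2 fold change of -0.66 (SE 0.141, adjusted p = 0.00562), and stood at 64.1 ± 11.2 CPM in DMSO. With Tpc and no OL9-119 it was at 66.5 ± 10.1 CPM, a log2 fold change of 0.06 (SE 0.144) against DMSO. The difference between the Tpc effects with and without OL9-119 was -0.72 (SE 0.201, edgeR adjusted p = 0.237). From lowest to highest the levels of DDIT4 ran DMSO, Tpc, Tpc + OL9-119, OL9-119, with DMSO and Tpc within the spread of their replicates. The call of DDIT4 held in 2 of the 8 fits that left out a library. Among 36 ATF4 targets it was the lower DEG and ATF3 the higher one, and the median was -0.05.

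Many lists had no DEG. In the SR splicing factors and their kinases the median was 0.22, and 11 of 21 members were higher without overlap of the groups (2.79% of all genes tested). All 21 had a mean of at least 50 counts, a level at which 10.8% of genes lacked overlap in either direction. The lowest adjusted p of the list was 0.0321, for SRPK2 at -0.55. In 36 interferon-stimulated genes the median was -0.07, and the member of lowest p, IRF1, which is also an NF-kB target, was at 0.80 (SE 0.198, adjusted p = 0.0254). Cytosolic heat shock genes had DNAJA1 at 0.41 (SE 0.104, adjusted p = 0.0287) and nucleolar ribosome biogenesis genes had NIP7 at 0.56 (SE 0.149, adjusted p = 0.0476) as their members of lowest p. ER chaperones, NRF2 and glutathione genes, transcription elongation genes, the core spliceosome, snoRNA hosts, cytosolic ribosomal proteins, oxidative phosphorylation, the proteasome and mitochondrially encoded genes also had none, with medians between -0.10 and 0.21. The 47 replication-dependent histone genes had a median of -0.45 and no DEG, but 6 of them had a mean of at least 50 counts in these poly(A) libraries. Most histone mRNAs carry no poly(A) tail. In MHC class I presentation 1 of 18 genes rose, TAPBP by 0.86, and its call was lost without the 3 libraries of fewest genes and without OL9-119 replicates 2, 3 or 4 or Tpc + OL9-119 replicates 1 or 2 alone. TAPBP, SRPK2, IRF1 and NIP7 overlap a gene on the opposite strand.

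Tpc without OL9-119 was compared with its solvent in the same way, with no library shared between the comparisons. It gave 285 DEGs, 182 of them higher and the rest lower (0.985%, 0.629% and 0.356% of the genes tested). The split turned to 133 higher and 190 lower when length and GC offsets were added to the fit. At 3455043 counts each, the DMSO libraries held 17852, 16498, 15458 and 19730 genes in replicates 1 to 4. The Tpc libraries held 18919, 16616, 19765 and 20153. Fits without the 3 libraries of fewest genes left all of these in. With library complexity as a covariate 296 DEGs were called. The part of complexity in the medians with and without OL9-119 was not tested. The comparisons shared 73 DEGs, which are 61.9% of the 118 and 25.6% of the 285, and all 73 had the same direction in both. Of the 118 DEGs of Tpc added to OL9-119, all but 2 had the same direction without OL9-119. CXCL8 went from 15.3 ± 5.73 CPM in DMSO to 354 ± 61.9 CPM in Tpc (SD, n = 4), which is close to its levels in OL9-119 and Tpc + OL9-119, and the difference between the Tpc effects was -0.21 with SE 0.248. TNFAIP3 went from 11.2 ± 4.88 to 158 ± 22.1 CPM and PLK1 from 119 ± 16.8 to 37.4 ± 8.44 CPM, and these differences were -0.67 with SE 0.259 and 0.20 with SE 0.239.

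**Figure D4:**
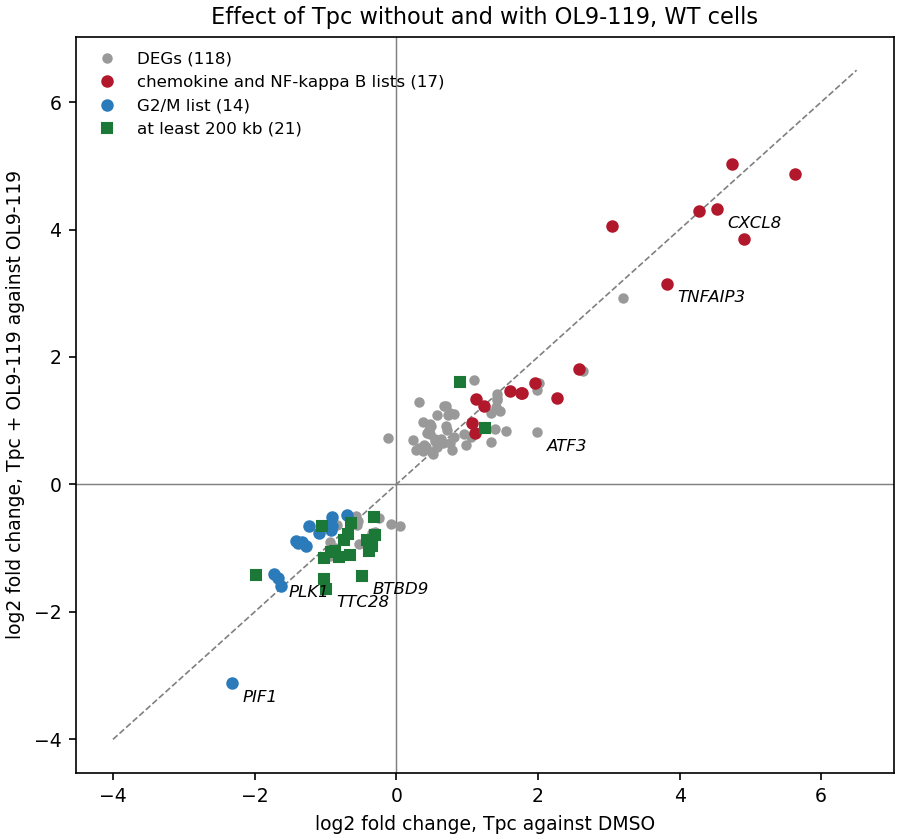
Log2 fold change of the 118 DEGs for Tpc against DMSO (horizontal) and for Tpc + OL9-119 against OL9-119 (vertical) in WT cells, with an identity line (dashed). The genes were chosen on the vertical axis, and all but 2 of the 118 lie on the same side of 0 on both axes.

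The difference between the Tpc effects with and without OL9-119 passed the threshold in 1 gene, ATF3 (0.00346% of the genes tested), while 3008 genes had an unadjusted p below 0.05. No gene passed when length and GC offsets were added to the fit. Leaving out 1 library gave 1 to 4 genes, with 4 without OL9-119 replicate 2 or DMSO replicate 4, 3 without DMSO replicate 1 and 2 without DMSO replicate 2. Its Tpc effect was 0.83 with OL9-119 and 1.98 without, a difference of -1.16 (SE 0.151, adjusted p = 6.5e-06). The levels with Tpc lay within the spread of the replicates, 358 ± 13.5 CPM without and 364 ± 17.5 CPM with OL9-119, and the levels without Tpc were 90.6 ± 15.1 CPM in DMSO and 205 ± 21.7 CPM in OL9-119 (SD, n = 4). The medians of the G2/M and the chemokine and NF-kB lists were closer to 0 with OL9-119, although the difference passed the test in none of their single genes. In 48 G2/M genes with a mean of at least 50 counts the median was -0.46 with and -0.72 without OL9-119. In 43 chemokine and NF-kB genes the medians were 0.81 and 1.11. In some of these genes the level without Tpc differed too. KIF20A was at 133 CPM in DMSO, 95.0 in OL9-119, 40.2 in Tpc and 36.0 in Tpc + OL9-119. NFKBIA was at 43.5, 73.4, 170 and 222 CPM in the same order. In DMSO and OL9-119, PLK1 was at 119 and 113 CPM and CXCL8 at 15.3 and 18.0 CPM. The part of the level without Tpc in these medians was not tested. In 136 genes of at least 500 kb the medians were -0.56 and -0.49, beside 0.00 and 0.01 over all 11879 genes at that level. Other lists, taken with every tested member, differed more. For 36 ATF4 targets, ATF3 among them, the median was -0.05 with and 0.23 without OL9-119. The median difference was -0.50, with 3 of the 36 above 0. For 15 mitochondrially encoded genes the medians were 0.21 and -0.30. Their median difference was 0.54, with 14 above 0. The cause of these shifts was not tested.

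In PARP1-KO cells the same addition of Tpc gave no DEG by edgeR (0.0% of the genes tested), with 1232 genes at an unadjusted p below 0.05 and a lowest adjusted p of 0.389, while DESeq2 called 2 genes in the fit of all libraries and 33 in the fit of the 8 libraries alone. Without its Tpc + OL9-119 replicate 3 edgeR called 3. CXCL8 stood at 44.4 ± 4.49 CPM with OL9-119 and 39.1 ± 2.35 CPM with Tpc + OL9-119 in PARP1-KO, where the level with OL9-119 was above the 18.0 ± 2.09 CPM of WT cells. The Tpc dose was 50 nM in PARP1-KO and 100 nM in WT, so genotype and dose cannot be told apart. The difference between the effects passed the threshold in 22 genes (0.0761%), 19 with the larger value in WT (0.0657%) and 3 with the smaller (0.0104%). For CXCL8 it was 4.498 (SE 0.253, adjusted p = 1.23e-20), for CCL20 4.42 (SE 0.375, adjusted p = 7.59e-13) and for TNFAIP3 2.96 (SE 0.256, adjusted p = 9.79e-13). For PLK1 it was -1.37 (SE 0.239, adjusted p = 0.000646) and for KIF20A -1.32 (SE 0.204, adjusted p = 5.42e-05).

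The median of long genes was below 0 in PARP1-KO cells too. In genes of 500 kb and over with a mean of at least 50 counts the median was -0.43 in PARP1-KO beside -0.56 in WT, and 129 of these 138 genes were below 0 in PARP1-KO. The median of the chemokine and NF-kB genes was 0.10 in PARP1-KO beside 0.81 in WT, and that of the G2/M genes -0.10 beside -0.46. Of the 72 genes that rose in WT 52 were above 0 in PARP1-KO, and of the 46 that fell 40 were below 0. Among genes with a mean of at least 50 counts the sign in PARP1-KO varied with length. Below 0 were 443 of 2173 genes under 10 kb, 1661 of 5065 of 10 to 50 kb and 704 of 784 of 200 to 500 kb. The median length was 12.9 kb in the 72, and 19 of the 46 span at least 200 kb. No gene of at least 500 kb other than CREB5 was among the 22 genes whose effect differed.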

How the data were processed

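Poly(A) RNA of HEK293A cells was sequenced as paired 100 bp reads from directional libraries on an MGISEQ-2000 instrument. Per the labels and the methods of the study, STAR 2.7.8 was used by the authors for alignment to hg38 (Ensembl 93), and they deposited 1 table of raw read counts per gene, not normalized, with 40 libraries of 10 conditions. FastQC 0.11.9 and Picard 2.26.6 are also named in the processing notes of the submitters. The strand column taken from STAR is not given in the sources used here.

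Genes with at least 10 counts in all were tested with edgeR 4.0.16 (quasi-likelihood test, legacy option, TMM normalization) in R 4.3.3, in 1 fit of all 40 libraries with a group for each condition, so that all comparisons share an estimate of the spread. SE is the absolute log2 fold change divided by the square root of F. CPM uses TMM library sizes. Calls needed a Benjamini-Hochberg adjusted p below 0.01, and DESeq2 1.42.0 was an alternative. Gene positions and types were those of GENCODE 44, which matched 57754 listed IDs and left 641 unmatched, and length is annotated start to end. Named genes are the 15 highest and 15 lowest DEGs that average 50 or more counts and do not overlap, up to 4 DEGs of lowest adjusted p in each list (or the member of lowest p where a list has no DEG), PARP1, TOP1 and TDP1, and the 5 genes of lowest adjusted p in each difference of effects. The comparison, gene lists and naming rule were chosen with earlier results of these data known. Promoter sequences are RefSeq's (GRCh38.p14), and motif shares refer to windows of 300 bases. Of 100 genes with a simulated log2 change of 1 in the WT comparison 56 were called, and of 100 with a change of 2, 81 were called, with 2 false calls over 27954 genes, so that many changes of 1 were missed at this depth. Intervals of 0 counts cover counting error only. No 2 replicates agreed within sampling noise (chi-square per degree of freedom of 2.87 to 28.2).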

Additional observations from a re-analysis of the deposited data

Results flagged for a closer look

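In 12 of the 144 groups of 4 values tested, 1 library stood apart from the other 3 by more than Dixon's 95% critical value, where chance gives about 1 in 20. Of the 12, 10 fall on the 3 libraries of fewest genes. With OL9-119, replicate 2 was lowest for TTC28 at 31.6 CPM and for PTPRG at 25.7 CPM, and highest for CDC6 at 203.6 CPM and for the mitochondrial share of counts at 5.95%. Among the Tpc + OL9-119 libraries, replicate 1 was lowest for SAPCD2 at 43.6 CPM, IER3 at 200.7 CPM and SQSTM1 at 286 CPM, and highest for AURKA at 66.5 CPM. Replicate 2 of that group was highest for PPP1R15A at 649.7 CPM and lowest for the median log2 ratio of genes of 200 to 500 kb at -0.41. OL9-119 replicate 1 was lowest for TCIM at 21.9 CPM and had the highest total, 14118481 counts. The part of library complexity in these values was not tested.

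The Tpc effect on ATF3 differed with and without OL9-119 by -1.16 on the log2 scale. Between genotypes, under OL9-119, the Tpc effect on 17 of the genes named in the report differed. WT minus PARP1-KO it was 4.80 for CXCL1, 4.498 for CXCL8, 4.42 for CCL20, 4.01 for CD69, 2.96 for TNFAIP3 and 2.77 for PTX3. It was 2.02 for TCIM, 1.70 for TNFRSF9, 1.57 for EFNA1, 1.47 for NFKBIA, 1.42 for IER3, 1.26 for CREB5, 1.13 for PPP1R15A and 0.90 for ATF3. It was -1.45 for SAPCD2, -1.37 for PLK1 and -1.32 for KIF20A. Genotype and dose cannot be told apart in these differences.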

How the results depend on the processing

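All 118 DEGs kept their sign in every alternative fit, but their number did not hold. It was 278 with DESeq2 on all libraries, 216 with DESeq2 on the 8 libraries, 210 with no filter on low counts (105 higher and 105 lower), 65 with only the libraries compared in the fit, 49 with only WT libraries, 65 with all libraries thinned to the smallest total, 244 at an adjusted p below 0.05 and 49 with a change of at least 1 on the log2 scale in either direction. Leaving out 1 library gave 70 to 1.3e+02 calls (the higher number rounded): 70 without Tpc + OL9-119 replicate 1 or OL9-119 replicate 4, 71 without OL9-119 replicate 3, 73 without its replicate 2 and 74 without Tpc + OL9-119 replicate 2. Without the 3 libraries of fewest genes, an alternative chosen after seeing the data, 38 were called, 37 of them among the 118, and 24 of the 46 named DEGs were among those called, while 31 of the 46 were called in each of the 8 fits that left out a library. With offsets for length and GC content 133 were called and the split turned to 100 higher and 33 lower. The cause of these changes was not tested.

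Same-numbered libraries of the 2 groups correlated at -0.075, 0.201, 0.00 and 0.157 in their deviations. OL9-119 replicates 2 and 4 correlated best with the library of the same number. Replicate 1 correlated best with Tpc + OL9-119 replicate 3 (0.153) and replicate 3 with Tpc + OL9-119 replicate 4 (0.134). With 4 libraries in a group these values cannot decide whether the numbers pair the samples. With the replicate block 146 genes were called in the WT comparison, 4 for the difference with and without OL9-119, 24 for that between genotypes, 339 for Tpc against DMSO and 0 in PARP1-KO, and the longest genes had a median of -0.58. Blocking on library name prefix gave 119 for the WT comparison.

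The 1 call of the difference with and without OL9-119 became 9 with DESeq2 on all libraries, 5 with DESeq2 on those compared, 16 with no filter, 5 with filterByExpr, 5 with the prefix block, 2 with thinning, 2 with a complexity covariate, 6 at an adjusted p below 0.05 and 0 with length and GC offsets. Leaving out a library gave 1 to 4, with 4 without OL9-119 replicate 2 or DMSO replicate 4, 3 without DMSO replicate 1 and 2 without DMSO replicate 2. The 22 calls between genotypes became 37 and 66 with DESeq2 on all and on the compared libraries, 34 with only those libraries in the fit, 13 without the 3 libraries of fewest genes and 17 to 22 leaving out a library. The 285 calls of Tpc against DMSO became 517 with DESeq2 on all libraries, 56 with only the compared libraries and 1.2e+02 (rounded) with only WT libraries in the fit, 175 with thinning, 571 at an adjusted p below 0.05, 109 at a log2 change of 1 or more in either direction and 204 to 423 leaving out a library. With length and GC offsets they became 323, split 133 higher and 190 lower. The 0 calls in PARP1-KO became 2 and 33 with DESeq2, 1 with no filter, 3 with only the compared libraries in the fit, and 0 to 3 leaving out a library, with 3 without Tpc + OL9-119 replicate 3 of PARP1-KO.

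By summed exon length the medians of the classes 10 to 50 kb and 50 to 200 kb were -0.0477 and -0.25. With length and GC offsets the medians were 0.15 under 10 kb, 0.13 for 10 to 50 kb, 0.0523 for 50 to 200 kb and -0.48 for 500 kb and over. Without the 3 libraries of fewest genes they were 0.0314 for 10 to 50 kb and -0.63 for 500 kb and over. Leaving out a library gave medians for 500 kb and over of -0.64 to -0.53, for 200 to 500 kb of -0.31 to -0.23, for 50 to 200 kb of -0.04 to 0.01, for 10 to 50 kb of 0.04 to 0.07 and under 10 kb of -0.05 to 0.04. The near-zero values of TOP1 and PARP1 changed sign. The log2 fold change of TOP1 was -0.0503 with the complexity covariate, -0.0403 without the 3 libraries, and -0.0566 to 0.0612 leaving out a library, and the log2 fold change of PARP1 was -0.00476 to 0.0415 leaving out a library. The difference in the mitochondrial share of counts was 0.400 without the rRNAs and 0.687 to 1.17 leaving out a library, beside 0.875 points.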

Other observations

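The zinc finger genes whose symbols begin with ZNF or ZFP, many of which encode DNA-binding repressors, were taken as a group after their values were seen. Of 442 with a mean of at least 50 counts, 6 were DEGs, all of them higher (ZNF222, ZNF597, ZNF10, ZFP82, ZNF136 and ZNF473), where 0.598% of all 11879 genes at that level were higher DEGs. In 354 of the 442 the log2 fold change was above 0, beside 5980 of the 11879, and the median was 0.26. The medians were 0.32 for Tpc against DMSO in WT and 0.05 for Tpc + OL9-119 against OL9-119 in PARP1-KO. Over all genes at that level they were 0.00, 0.01 and 0.02.

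PIF1, a helicase in the G2/M list, had the lowest log2 fold change of all DEGs, -3.11 (SE 0.594, adjusted p = 0.0011), with 6.06, 15.2, 5.09 and 6.15 CPM in the OL9-119 libraries and 0.0801, 0.108, 2.49 and 1.37 CPM in the Tpc + OL9-119 libraries. Its mean count was too low for the naming rule. FILIP1L, of 286 kb, and CREB5 were the only higher DEGs among the 21 DEGs that span at least 200 kb, and FILIP1L rose by 1.61.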
